A study of Mus musculus with 8 samples.

Results

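The 10 genes described here, Lgr5, Lgr4, Ascl2, Smoc2, Olfm4, Gkn3, Clca3b, Sox4, Ifitm3 and Lrig1, are markers in common use for the stem cells of the small intestine, and were taken by symbol from the 27998 genes of the deposited matrices. All 10 were found there once each. Cells had been prepared from the crypts of adult mice with EDTA, sorted for EpCAM, an epithelial surface protein, and captured in droplets, and their transcripts were counted at the 3-prime end by unique molecular identifiers (UMIs), 1 for each transcript caught. The KO mice lacked both copies of ieCtnnb1, an enhancer upstream of Ctnnb1, which codes for β-catenin. The WT mice were not plain wild-type animals: per the figure legends of the study they carried a LacZ and iCre reporter driven by that enhancer and the Shh promoter at the H11 locus. The mice were on a C57BL/6 background and female, and cells of the animals of a genotype are in 1 matrix. GEO's labels name 4 samples per genotype, but the values came as 1 matrix per genotype in which no cell could be traced to a sample, so each genotype is 1 sample here. No test between groups was possible, and all intervals below are 95% intervals that cover counting error only.

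In the crypt base, Wnt ligands and R-spondins keep β-catenin in the nucleus, where with TCF factors it maintains a stem cell programme. The crypt base columnar (CBC) cells that carry this programme lie between Paneth cells and give rise to transit-amplifying cells (TACs), which divide further before they become absorptive or secretory cells. Lgr5 and Lgr4 code for R-spondin receptors. Ascl2 codes for a transcription factor of the stem cell programme, Smoc2 for a matricellular protein and Olfm4 for a secreted glycoprotein that marks CBC cells. Gkn3 codes for a secreted gastrokine and Clca3b for a member of the CLCA family. Sox4 codes for a transcription factor of progenitors, Ifitm3 for an interferon-induced membrane protein and Lrig1 for an inhibitor of ErbB receptor signaling.

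The filters kept 13095 WT cells with a median of 6675 UMIs and 8658 KO cells with a median of 8692 UMIs. Cells were grouped with the 10 genes kept out of the clustering and out of the markers that name a class. 1 cluster was called CBC-like from 7 other markers among its first 50 genes. It held 482 WT cells (3.68% of kept cells, 3.36 to 4.02) and 463 KO cells (5.35%, 4.88 to 5.84). Olfm4, Clca3b, Sox4, Gkn3 and Ifitm3 were among its 10 leading genes although the clustering had not used them. This class depends on how the clustering graph was built. The graph built first had no CBC-like cluster at the same resolution, and 92.9% of the WT cells and 92.7% of the KO cells called CBC-like here were TAC-like in it. The defining product of Paneth cells, Lyz1, was at 4536 CPM (UMIs of a gene scaled to a fixed total in each group of cells) in WT and 3151 CPM in KO CBC-like cells, against 43599 and 40689 CPM in Paneth-like (PC-like) cells. Ptprc and Col1a1, which mark leukocytes and stroma, were at 0 UMIs in CBC-like cells of both matrices. Ctnnb1 was at 233 CPM in WT and 149 CPM in KO CBC-like cells. Of the 8637 genes with at least 50 UMIs in these cells, 34.7% were lower in KO by at least 1.5-fold. The matrices shared 29 barcodes among the kept cells.

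The genes lie on 8 chromosomes of mouse build GRCm38, as annotated in GENCODE M21. Lgr5 is at chr10:115450311-115587780 (minus strand), Smoc2 at chr17:14279506-14404790 (plus), Lgr4 at chr2:109917647-110014257 (plus), Gkn3 at chr6:87383256-87388935 (minus), Sox4 at chr13:28948919-28953713 (minus) and Lrig1 at chr6:94604529-94700158 (minus). The start region of 8 of them, 250 bases before to 50 after the RefSeq start on build GRCm38.p6, was at hand. Those of Lgr5 and Smoc2 were not. The regions of Olfm4 (chr14:80000052-80000351, plus strand) and Clca3b (chr3:144849253-144849552, minus strand), which were lower in KO stem-like cells, and of Ascl2 (chr7:142969215-142969514, minus strand) and Ifitm3 (chr7:141010695-141010994, minus strand), which were higher, are printed 5′ to 3′ so that both directions can be read side by side. Capitals mark a match to 1 of the motifs searched on both strands, which were CTTTGA (the core that TCF and LEF factors bind), GTGGGAA (the core that RBPJ of the Notch pathway binds) and the E-box CAGCTG.
Olfm4: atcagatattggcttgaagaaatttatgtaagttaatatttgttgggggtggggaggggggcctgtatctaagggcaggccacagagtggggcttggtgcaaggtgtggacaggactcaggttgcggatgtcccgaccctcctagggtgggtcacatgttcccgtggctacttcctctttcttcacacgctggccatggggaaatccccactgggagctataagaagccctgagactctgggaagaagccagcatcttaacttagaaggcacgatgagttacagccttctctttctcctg
Clca3b: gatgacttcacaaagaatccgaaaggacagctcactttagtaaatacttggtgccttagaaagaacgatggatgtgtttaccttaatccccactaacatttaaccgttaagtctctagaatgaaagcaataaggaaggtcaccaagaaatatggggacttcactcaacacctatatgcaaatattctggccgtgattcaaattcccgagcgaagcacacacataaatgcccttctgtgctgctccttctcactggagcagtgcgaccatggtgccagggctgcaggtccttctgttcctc
Ascl2: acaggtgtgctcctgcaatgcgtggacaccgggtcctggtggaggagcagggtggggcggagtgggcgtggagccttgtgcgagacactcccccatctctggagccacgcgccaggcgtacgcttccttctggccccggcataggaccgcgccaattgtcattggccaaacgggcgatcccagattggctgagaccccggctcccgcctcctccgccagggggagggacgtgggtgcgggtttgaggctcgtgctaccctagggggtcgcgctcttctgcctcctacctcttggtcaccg
Ifitm3: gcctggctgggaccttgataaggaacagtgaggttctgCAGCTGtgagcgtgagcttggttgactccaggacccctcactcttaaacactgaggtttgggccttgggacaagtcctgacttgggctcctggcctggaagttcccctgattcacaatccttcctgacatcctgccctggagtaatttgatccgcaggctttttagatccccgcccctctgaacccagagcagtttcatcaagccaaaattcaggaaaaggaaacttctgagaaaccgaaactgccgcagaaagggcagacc
CTTTGA was in none of the 8 regions and in 5257 of all 32851 regions of this length. GTGGGAA was in none of the 8 and in 6.38% of all. CAGCTG was in the regions of Ifitm3 and Sox4, and in 16.3% of all. No match says only that these letters are not in this window.

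The receptors and Wnt-linked genes were highest in, or close to, CBC-like cells, and some of them reached far beyond. In CBC-like cells Lgr5 was at 46.6 CPM (39.8 to 54.2, from 167 UMIs) in WT and 41.6 CPM (36.2 to 47.5, from 217 UMIs) in KO. Mature enterocyte-like (mEC-like) cells had only 9 UMIs of it in WT and 19 in KO, or 1.19 and 1.71 CPM. Lgr5 thus had a steep fall from stem-like to enterocyte-like cells in both matrices. Lgr4 had a much flatter course. Its WT level was 66.1 CPM in CBC-like and 73.6 CPM in TAC-like cells, and 41.4 CPM remained in mEC-like cells. In KO the same classes had 48.9, 41.7 and 21.3 CPM. The clusters that took no name had more Lgr4 than any named class, with 109 CPM in WT and 63.2 CPM in KO, and their cells were shallow, with medians of 979 and 726 UMIs. 1 of these clusters, led by the early response genes Jun and Egr1 (1048 WT and 274 KO cells), had Lgr5 at 41.2 and 42.1 CPM, close to the CBC-like cells, with Lgr4 at 142 and 128 CPM, yet Olfm4 at 45.1 and 19.4 CPM and Ascl2 at 1.96 and 8.09 CPM.

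The WT level of Ascl2 was 32.7 CPM (27.0 to 39.1) in CBC-like and 30.8 CPM (28.3 to 33.5) in TAC-like cells, so these neighbours did not differ beyond counting error. In KO they had 65.4 CPM (58.6 to 72.7) and 42.5 CPM (39.7 to 45.3). The level of Lrig1 in WT was 40.5 CPM in CBC-like, 29.4 CPM in TAC-like cells and 6.59 CPM in mEC-like cells, and in KO these levels were 27.2, 16.01 and 2.25 CPM. Smoc2 ran from 138 CPM in WT CBC-like cells over 92.2 CPM in TAC-like cells down to 7.77 CPM in the mEC-like class, and in KO from 103 over 67.0 to 6.03 CPM.

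The secreted and membrane products, Olfm4, Clca3b, Gkn3 and Ifitm3, were also higher in CBC-like than in TAC-like cells of both matrices. Olfm4 in WT had 374 CPM (354 to 395) in the CBC-like class, 192 CPM (186 to 199) in TAC-like cells and 5.80 CPM in mEC-like cells. In KO it was at 101 CPM (92.4 to 110), 49.6 CPM (46.6 to 52.7) and 2.16 CPM. Clca3b in WT had 921 CPM in the CBC-like class, 700 CPM in TAC-like cells and 203 CPM in immature enterocyte-like (imEC-like) cells, and it made up 53.7% of all UMIs of the 10 genes in the imEC-like cells of WT. In KO Clca3b was at 524, 341 and 112 CPM in these classes, and at 40.2% of the imEC-like UMIs of the 10 genes. Gkn3 was at 68.6 and 22.0 CPM in CBC-like and TAC-like cells of WT, and at 93.2 and 50.01 CPM in KO. Ifitm3 was at 727 and 506 CPM in WT and at 1158 and 737 CPM in KO.

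Sox4 was as high in some secretory cells as in stem-like cells. Its WT level was 215 CPM (200 to 230) in CBC-like cells and 207 CPM (186 to 230) in enteroendocrine-like (EEC-like) cells, which did not differ beyond counting error, and at 145 CPM in tuft-like (TC-like) cells. In KO the EEC-like cells had 219 CPM (198 to 240), the TC-like cells 201 CPM (177 to 227) and the CBC-like cells 191 CPM (180 to 204). Counted over the set, 9 of the 10 genes had their highest level among the 8 named classes in CBC-like cells of WT, all but Lgr4, and 9 did so in KO, all but Sox4. These classes were named from cells of the same matrices, so the order is a description. It compares whole classes, and 1 cluster within the TAC-like class had a higher sum of the 10 genes than CBC-like cells. With the highest doublet scores removed, or with the graph built first at resolution 2, 7 genes had their highest class level in CBC-like cells of WT.

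**Figure D1:**
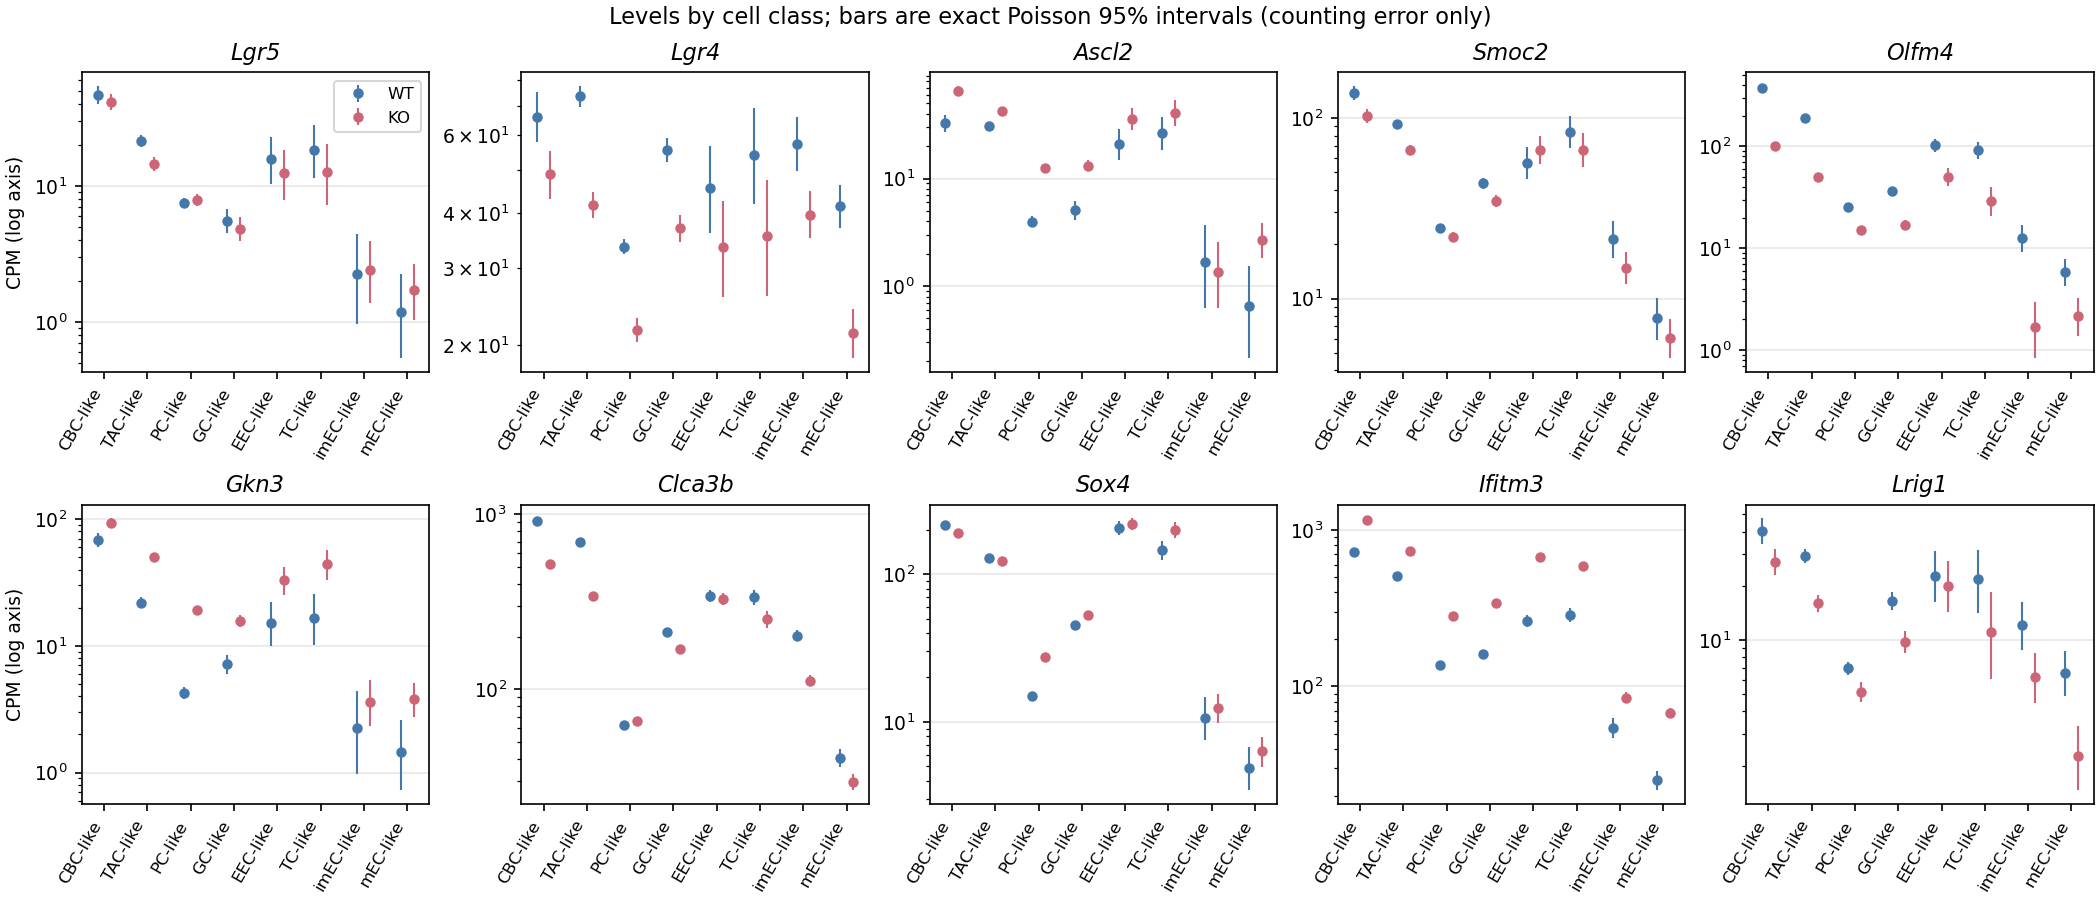
Level of each of the 10 genes (CPM, log axis with its own range in each panel) in the 8 named cell classes (GC-like, goblet-like), with WT in blue and KO in red, and with bars for the exact Poisson 95% interval. Lgr5 goes in WT from 46.6 CPM (CBC-like) to 1.19 CPM (mEC-like), whereas Lgr4 goes only from 66.1 to 41.4 CPM.

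The TAC-like cells were not of 1 kind. 2 of their clusters, 1 with S phase genes such as Mcm3 and Hells (529 WT and 397 KO cells) and 1 with mitotic genes such as Cenpf and Ccnb1 (516 and 304 cells), carried the stem cell markers, and a further mitotic cluster led by Ube2c and Rbp7 (606 and 385 cells) had little of most of them. The remaining cluster (533 and 250 cells) was shallow, with medians of 2040 and 1786 UMIs, was led by Rpgrip1, AY036118 and Gm42418 with mitochondrial genes, had 1 TAC marker among its first 10 genes, and held the 10 genes at 1257 CPM in WT and 1268 CPM in KO. Lgr5 was at 28.7 and 36.0 CPM in the first pair of clusters in WT and at 3.26 CPM in the Rbp7 cluster. Ascl2 was at 43.9, 51.7 and 2.92 CPM in the same clusters. Olfm4 was at 265, 327 and 21.1 CPM. Clca3b and Lgr4 went on in the Rbp7 cluster, with 358 and 79.8 CPM. KO had the same split, with Lgr5 at 20.9, 23.6 and 1.41 CPM and Olfm4 at 68.0, 83.6 and 7.30 CPM. In the mitotic cluster that carried the markers, Ascl2 was higher than in the CBC-like cluster in WT, at 51.7 CPM (45.5 to 58.4) against 32.7 CPM (27.0 to 39.1). The 10 genes together were at 2839 CPM in WT and 2407 CPM in KO in this mitotic cluster. In CBC-like cells they were at 2628 and 2353 CPM.

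To compare single cells of unequal depth, each cell was thinned to 2000 UMIs, which left out 3166 WT and 3035 KO cells that were shallower. Lgr5 was then found in 48 of 479 WT CBC-like cells (10.0%, 7.48 to 13.1) and in 39 of 456 KO CBC-like cells (8.55%, 6.15 to 11.5). In mEC-like cells, which served as background because free RNA gives UMIs in cells that do not express a gene, it was found in 0.311% of WT and 0.0890% of KO cells, whose median depths before thinning were 5083 and 2317 UMIs, against 6745 and 9753 UMIs in CBC-like cells. Olfm4 was found in 44.1% (39.6 to 48.6) of WT and 20.2% (16.6 to 24.2) of KO CBC-like cells, with 1.71% and 0.267% in mEC-like cells. Clca3b was found in 80.2% and 61.2% of CBC-like cells, and in 6.37% and 4.54% of mEC-like cells. Ifitm3 was found in 64.1% of WT and 76.1% of KO CBC-like cells, with 4.74% and 12.2% in mEC-like cells. Without thinning, the shares in CBC-like cells were 22.8% in WT and 27.2% in KO for Lgr5, 69.9% and 52.5% for Olfm4, 97.3% and 93.5% for Clca3b, and 85.3% and 91.4% for Ifitm3. A miss at 2000 UMIs does not show that a cell lacks the gene.

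**Figure D2:**
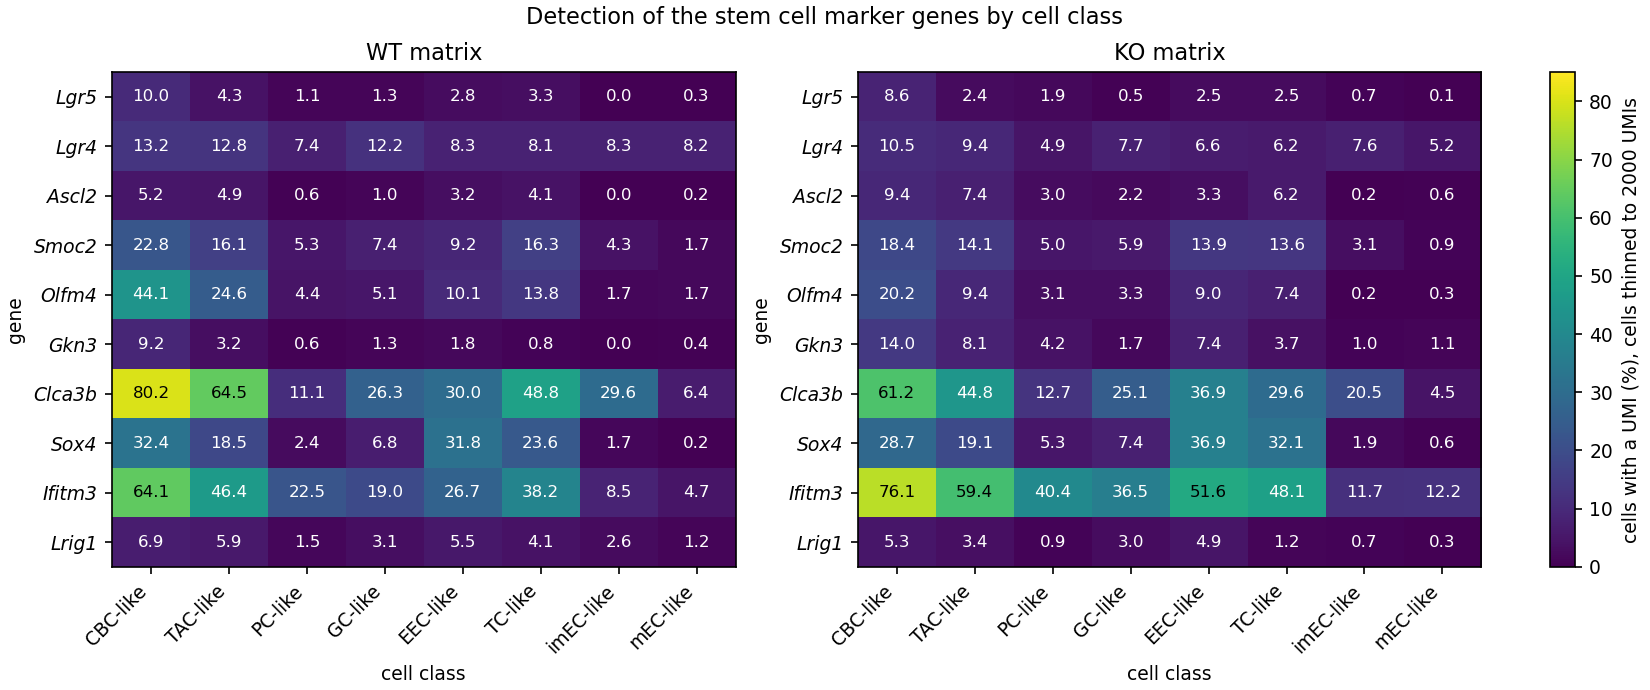
Share of cells (%) with at least 1 UMI of each gene (rows) in each cell class (columns), after thinning to 2000 UMIs, in WT at left and KO at right. Clca3b and Ifitm3 are found in most CBC-like cells, and Sox4 in 31.8% of WT and 36.9% of KO EEC-like cells.

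Among PC-like cells the markers lay mostly in 1 of 4 clusters. That cluster, led by Clps and AY761184, held 890 of the 3260 WT and 449 of the 1091 KO PC-like cells, but 14180 of 23961 WT and 14565 of 23072 KO UMIs of the 10 genes. These genes summed to 650 CPM in WT and 770 CPM in KO there, and to between 175 and 203 CPM in WT and between 264 and 380 CPM in KO in the other PC-like clusters. At resolution 2 a PC-like cluster had Olfm4 and Gkn3 among its 10 leading genes. Over the whole class, after thinning, Lgr5 was found in 1.08% of WT and 1.94% of KO PC-like cells, Ascl2 in 0.556% and 2.96%, and Gkn3 in 0.649% and 4.17%. In mEC-like cells the shares were 0.155% and 0.623% for Ascl2, and 0.388% and 1.07% for Gkn3. Without thinning the shares with Lgr5 were 13.7% and 23.7%. Ifitm3 was found in more of them, 22.5% and 40.4% after thinning. PC-like cells were deep, with medians of 23081 UMIs in WT and 45563 UMIs in KO, and held 41.6% of all Lgr5 UMIs of WT and 33.9% of those of KO, against 12.4% and 19.6% in CBC-like cells. Counted by cells at equal depth instead, PC-like cells made up 16.1% of the WT cells with Lgr5, CBC-like cells 22.0% and TAC-like cells 37.6%. In KO these shares were 19.4%, 36.1% and 25.9%.

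The make-up of the UMIs of the 10 genes differed between classes of 1 matrix. In WT, Lgr4 took 2.52% of these UMIs in CBC-like cells and 30.5% in mEC-like cells, and Sox4 took 8.16% in CBC-like, 19.0% in EEC-like and 3.60% in mEC-like cells. The share of Lgr5 was 1.77% in the CBC-like, 2.34% in the PC-like and 0.875% in the mEC-like class. How much of the low shares in PC-like, EEC-like and TC-like cells came from free RNA or doublets was not tested. TC-like cells in WT had Clca3b in 48.8% and Ifitm3 in 38.2% of thinned cells, far above the mEC-like cells.

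Single cells with many of the 10 genes at once lay mostly, but not only, in the stem-like and cycling cells. At 2000 UMIs, 67 of 479 WT CBC-like cells (13.99%, 11.01 to 17.4) and 40 of 456 KO CBC-like cells (8.77%, 6.34 to 11.8) held at least 5 of the genes. The shares were 6.95% (5.86 to 8.18) and 4.79% (3.64 to 6.16) in TAC-like cells, 0.0926% and 0.278% in PC-like cells (all 3 cells of each matrix in the Clps cluster), and 0 of 1288 and 0 of 1124 cells in mEC-like cells, which allows up to 0.286% and 0.328% at the upper bound of the exact interval. EEC-like cells had shares of 3.69% (1.60 to 7.13) in WT and 3.28% (0.90 to 8.18) in KO. TC-like cells had 4.88% (1.81 to 10.3) in WT and 0 of 81 cells in KO. The intervals of both classes overlap those of the TAC-like cells. The TAC-like share averages unlike clusters. In WT 12.4% (9.68 to 15.6) of the cells of the marker-carrying mitotic cluster and 11.2% (8.60 to 14.2) of the S phase cluster held at least 5, shares whose intervals overlap that of the CBC-like cells, beside 0 of 606 cells in the Rbp7 cluster. In KO these shares were 7.57%, 7.30% and 0.260%. The marker-carrying mitotic cluster averaged 2.89 genes per cell in WT and 2.51 in KO. No cell held 9 or 10. A CBC-like cell held 2.88 of the genes on average in WT, and 2.52 in KO. Taking all classes together, 233 of 9929 WT cells (2.35%, 2.06 to 2.66) and 108 of 5623 KO cells (1.92%, 1.58 to 2.31) held at least 5. These intervals overlap, and the log2 ratio of KO to WT was -0.29. Without thinning this ratio was 0.48, at median depths of 6675 UMIs in WT and 8692 UMIs in KO. Of the cells with at least 5 genes, TAC-like cells made up 57.5% in WT and 52.8% in KO, and CBC-like cells 28.8% and 37.0%.

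**Figure D3:**
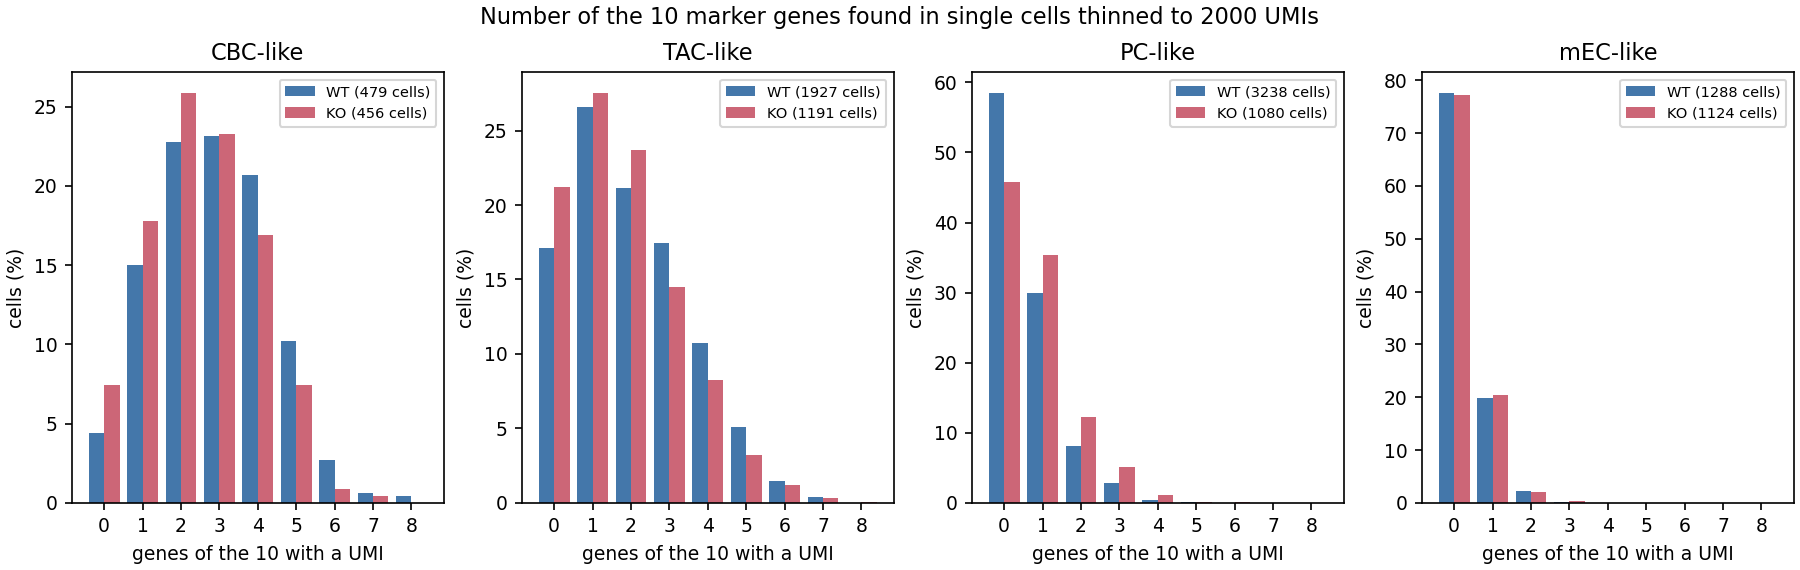
Share of cells (%, from 0) by the number of the 10 genes with a UMI after thinning to 2000 UMIs, in CBC-like, TAC-like, PC-like and mEC-like cells, with WT in blue and KO in red. CBC-like cells average 2.88 genes in WT and 2.52 in KO, whereas most mEC-like cells have none.

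Cells with Lgr5 held more of the other 9 genes than cells without it. In WT CBC-like cells the mean was 3.71 of the other genes in the 48 cells with Lgr5 and 2.68 in the 431 cells without, and in KO it was 3.23 and 2.36. In TAC-like cells the means were 3.48 and 1.90 in WT and 2.93 and 1.72 in KO. In PC-like cells they were 0.94 and 0.55 in WT and 1.52 and 0.78 in KO. Of PC-like cells with Lgr5, 15 of 35 WT cells and 2 of 21 KO cells held none of the others. Of those without it, 1895 of 3203 WT cells and 495 of 1059 KO cells held none. Over all kept cells, Lgr5 and Olfm4 were found together in 113 WT cells, 5.07 times the product of their shares, and in 17 KO cells, 2.96 times that product. Within WT CBC-like cells this ratio was 1.70, from 36 cells with both. Lgr5 and Ascl2 were found together in 4 of 479 WT and 3 of 456 KO CBC-like cells. Pairs with Lgr4 ran from 1.08 to 1.42 times the product over all WT cells, and pairs without it from 1.74 to 5.55. In KO these ranges were 1.03 to 1.57 and 1.44 to 4.19. Within WT CBC-like cells they overlapped, at 0.608 to 1.43 and 0.605 to 2.27. These ratios share the classes and the fixed depth and are descriptions.

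Over 48 points, each a cluster of at least 50 cells in 1 matrix, the genes most like the mean profile of the 10 were Cdca7 (Pearson's r of log2(CPM + 10) 0.96), a MYC-responsive gene, Cdk6 (0.94), a cell cycle kinase, and Aqp4 (0.94), a water channel. Cdca7 and Aqp4, and Rgmb and Prelp named next, were among the markers used to name the CBC-like class. For single genes the closest were Rgmb for Lgr5 (0.88), Prelp for Ascl2 (0.92), Cdca7 for Smoc2 (0.91) and Olfm4 (0.91), Nrtn for Gkn3 (0.90) and Ifitm3 (0.91), Ncl for Clca3b (0.97), Paics for Sox4 (0.95), Adgrl2 for Lrig1 (0.91) and Atp13a3 for Lgr4 (0.88). The points share matrices and classes, and 8568 genes were compared.

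Between genotypes the 10 genes did not move as a block. In CBC-like cells Olfm4 and Clca3b were lower in KO by at least 1.5-fold and Ascl2 and Ifitm3 higher, while Lgr5 differed by less than its counting error. Of all 8637 genes with at least 50 UMIs in these cells, 34.7% were lower and 4.62% higher by that fold, with a median log2 ratio of -0.31, and the median of the 10 was -0.30. The log2 ratio of KO to WT for Olfm4, with 1340 against 526 UMIs, was -1.89 (-2.04 to -1.74). Clca3b had a log2 ratio of -0.81 (-0.89 to -0.74). Ascl2, with 117 and 341 UMIs, had 1.002 (0.69 to 1.32), and Ifitm3 0.67 (0.61 to 0.74). Gkn3, at 0.44 (0.22 to 0.67), was higher by less than 1.5-fold. The remaining genes were lower by less than 1.5-fold, with Lgr5 at -0.16 (-0.46 to 0.14), Sox4 at -0.17 (-0.30 to -0.03), Smoc2 at -0.43, Lgr4 at -0.44 and Lrig1 at -0.57.

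The ratio of KO to WT moved with transcript length over all genes. In CBC-like cells its median was 0.22 in the shortest of 4 equal bins of genes and -0.80 in the longest. The short genes of the set, Ifitm3 (678 exonic bases), Gkn3 (856) and Ascl2 (1623), are the ones that were higher in KO, while the longest, Lgr5 (10264) and Smoc2 (6951), had ratios of -0.16 and -0.43. Beside the median of genes of like length and level, Ascl2 was 0.75 log2 units higher, Ifitm3 0.38 higher, Gkn3 0.01 higher and Lgr5 0.59 higher, whereas Olfm4 was 2.09 and Clca3b 1.11 units lower. The part of length in these ratios was not tested.

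**Figure D4:**
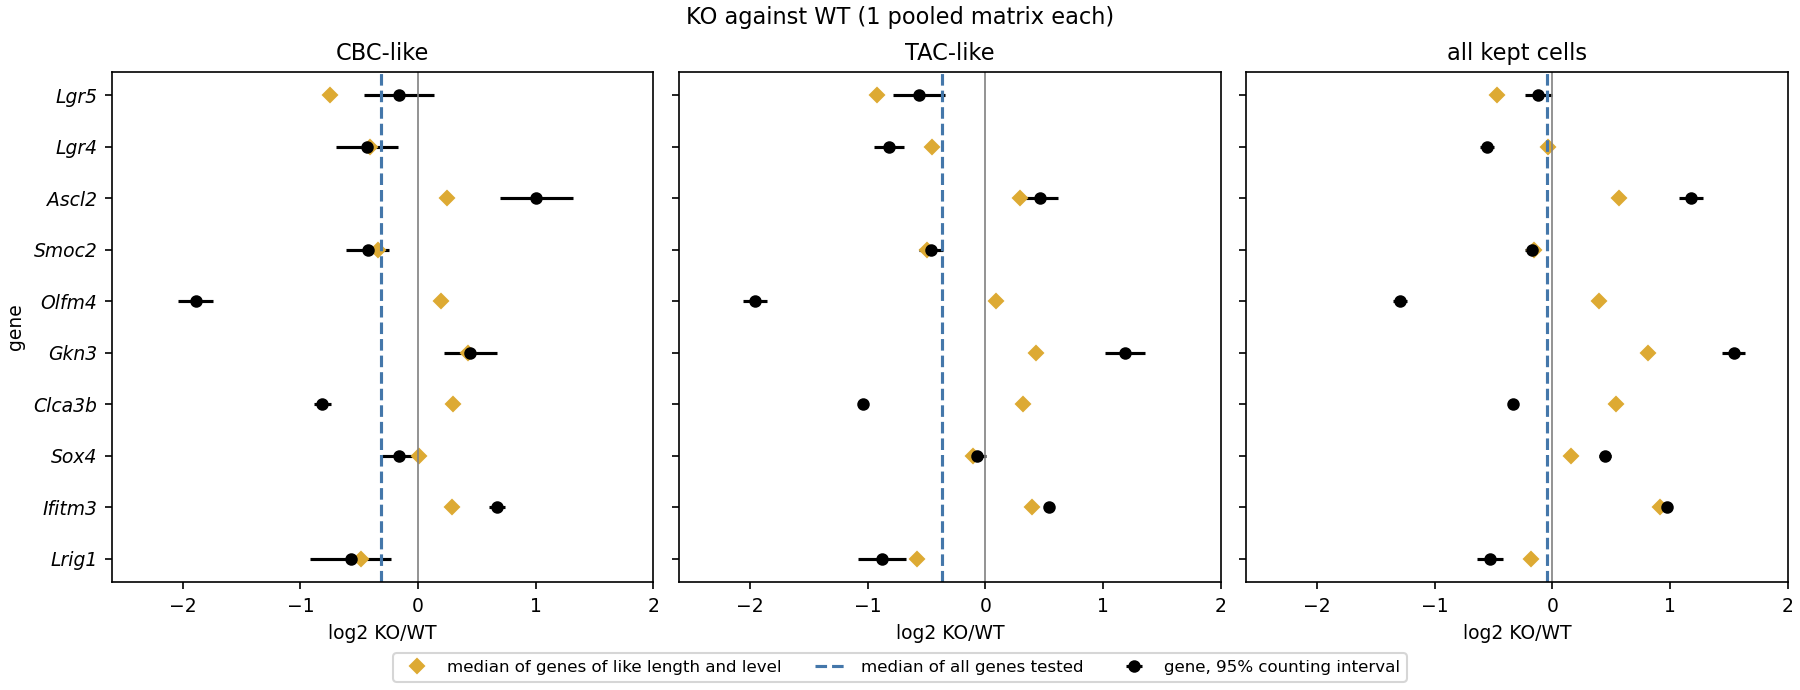
Log2 ratio of KO to WT for each gene (black, with 95% counting interval) in CBC-like, TAC-like and all kept cells, with the median of genes of like length and level (yellow diamonds) and of all genes tested (dashed blue line). Olfm4 lies at -1.89 and -1.95 in the first pair of panels, about 2 log2 units below its matched median.

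In TAC-like cells, where 38.5% of 10780 genes were lower and 4.54% higher by at least 1.5-fold, 4 of the 10 were lower and 1 higher. Olfm4 had a log2 ratio of -1.95 (-2.06 to -1.85), Clca3b -1.04, Lrig1 -0.88 and Lgr4 -0.82. Gkn3, with 385 and 1056 UMIs, had 1.19 (1.02 to 1.36). Lgr5, at -0.56 (-0.78 to -0.34), lay below 0 here but above its matched median by 0.36. Both values depend on the clustering. Lgr5 was at -1.02 at resolution 2, -1.01 with the graph built first at resolution 2 and -0.90 with each matrix clustered alone. These values are past 1.5-fold and no longer clearly above that median of -0.92. The median is that of the main TAC-like cells, and none was computed in these settings. Gkn3 was at 0.76, 0.90 and 0.62 in the same settings. The median of the 10 was -0.51, beside -0.37 for all genes. Over all kept cells, where the mix of classes enters too, 20.4% of genes were lower and 18.5% higher by that fold, 1 of the 10 was lower (Olfm4, -1.29) and 3 were higher (Gkn3, 1.54, Ascl2, 1.18, and Ifitm3, 0.97), and the median was -0.14, beside -0.05. With genes above 1% left out of the totals, Lgr4 (-0.90), Lrig1 (-0.87) and Clca3b (-0.67) passed that fold too, which makes 4 lower and 3 higher. New totals shift the ratios of all genes by the same amount, as for Sox4 from 0.45 to 0.11. The shares of all genes given above therefore do not apply to this count, and those under the new totals were not counted. In such sums fewer cells of a type and less RNA per cell cannot be told apart.

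Several genes had the same direction in every class in which they could be compared, though not in every cluster. Olfm4 was lower in KO in all 8 classes, from -0.76 in PC-like to -2.93 in imEC-like cells, with mEC-like cells at -1.42 (-2.21 to -0.68). Ifitm3 was higher in all 8, from 0.54 to 1.43, the last in mEC-like cells. The mEC-like cells held 0.565% of Olfm4 UMIs of kept WT cells and 0.846% of those of KO, and imEC-like cells 0.578% and 0.388%. Free RNA can reach all classes of a matrix, so such low classes are not independent of the others. Its part in their ratios was not tested. Gkn3 was higher in each of the 7 classes with at least 50 UMIs and Ascl2 in each of 6, most in PC-like cells (2.18 and 1.65). The PC-like and mEC-like sums rest on other clusters in WT than in KO. The Clps cluster was 890 of 3260 PC-like cells in WT and 449 of 1091 in KO. Within it Gkn3 was at 1.53, Ascl2 at 1.14 and Ifitm3 at 0.81, all still higher, and Olfm4 at -1.34, whereas Olfm4 was at 0.12 and 0.52 in the 2 other PC-like clusters with at least 50 UMIs of it. Of the mEC-like clusters, 2 shallow ones held 138 and 15 of 1600 cells in WT but 691 and 422 of 2202 in KO, and the one led by Fabp1 held 681 and 349. Within the latter Ifitm3 was at 1.16. Lgr4 was lower in all 8 classes, from -0.44 to -0.96. Over all genes, the median ratio in the shortest of 4 bins by transcript length was positive in each class. It ran from 0.11 in mEC-like to 0.68 in EEC-like cells. In the longest bin it was negative in each class, from -0.45 in PC-like to -0.88 in imEC-like cells. Ifitm3 (678 exonic bases), Gkn3 (856) and Ascl2 (1623) are short, and Lgr4 has 5884. The part of length in these directions was not tested. The libraries also differed in genes of the distal gut: Fabp6, an ileal bile acid binding protein, was at 5594 CPM in WT and 20548 CPM in KO among mEC-like cells, beside 109 and 395 CPM among CBC-like cells. Mki67, a proliferation gene, was at 212 and 46.6 CPM in CBC-like cells. The part of either in the ratios of the 10 genes was not tested.

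**Figure D5:**
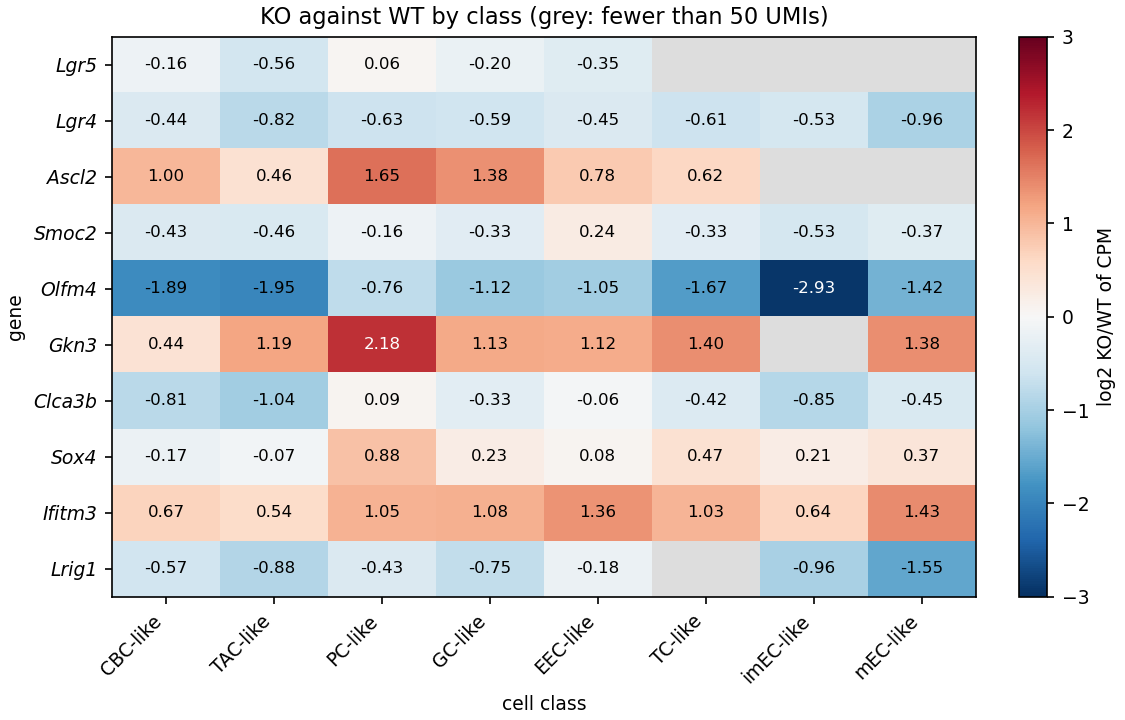
Log2 ratio of KO to WT of each gene (rows) in each class (columns), blue for lower and red for higher in KO, grey where a gene had fewer than 50 UMIs. Olfm4 and Lgr4 are lower and Ifitm3 is higher in all 8 classes. Over all genes the ratios in each class also moved with transcript length.

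In thinned CBC-like cells, both the share of cells with Olfm4 and the UMIs per cell with it were lower in KO. A lower level in every cell would by itself lower both. These measures thus cannot tell fewer cells with Olfm4 from less Olfm4 per cell, and the split was not tested. Among thinned CBC-like cells with Olfm4 the mean was 1.95 UMIs in WT and 1.21 in KO, and 49 of 211 WT cells against 5 of 92 KO cells had 3 or more. For Clca3b the means were 2.36 and 1.81, for Ifitm3 2.21 and 3.06. For Ascl2 they were 1.08 and 1.12, and 25 of 479 cells in WT and 43 of 456 in KO had a UMI of it. Of these, 23 in WT and 39 in KO had a single UMI. At counts this low the mean per cell with a UMI can hardly move. These values thus cannot tell more cells with Ascl2 from more Ascl2 per cell.

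The other genes of the programme are given from lists. Of 11 genes of the R-spondin and Wnt receptor complex, 6 had at least 50 UMIs in CBC-like cells. All 6 were lower in KO and 4 by at least 1.5-fold, with a median of -0.85. Of all genes tested, 34.7% were lower and 4.62% higher by that fold, with a median of -0.31. In the longest of 4 bins of genes by transcript length the median was -0.80. The receptor genes were not compared with genes of like length. Fzd5, a Wnt receptor, was at -1.22 and Znrf3, which removes such receptors, at -1.04, while Lrp5, a co-receptor, was at -0.50 and Fzd7 at -0.31 with intervals that included 0. Of 34 further stem cell signature genes, 33 were in the matrices and 32 had enough UMIs, of which 10 were lower and 1 higher by 1.5-fold, with a median of -0.31, close to the shares and the median over all genes. The lowest were Jun (-1.34) and Ephb2 (-1.32), a guidance receptor and Wnt target, and the highest Kcne3 (0.92), a potassium channel subunit, and 2210407C18Rik (0.52). Axin2, a feedback target of Wnt signaling, was at 111 and 50.6 CPM. Most of these signature genes, with Axin2, Kcne3 and 2210407C18Rik among them, were markers used to name the CBC-like class. So were some of the receptor genes, such as Znrf3. Their ratios in this class are thus not independent of its naming. Of 10 Notch pathway genes 7 had enough UMIs and 2 were lower by that fold, against 34.7% of all genes, Dll1 (-0.97) and Jag1 (-0.60, with an interval that included 0), both ligands, and the highest were Notch2 (0.18) and Atoh1 (0.10), whose intervals included 0. Of 5 genes linked to reserve stem cells 3 had enough UMIs, of which Hopx was at 0.72, Mex3a at -0.30 and Bmi1 at -0.51, while Tert and Clu had too few.

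Of 24 paralogs of the 10 genes, 7 had enough UMIs in CBC-like cells. Ifitm2, which lies close to Ifitm3 in sequence, was at 0.87 (0.79 to 0.95), and Sox9 at -0.07. Clca1, a goblet cell product, was at -1.77 and Clca3a1 at -1.29. Reads may be split between Ifitm3 and Ifitm2 and between Clca3b and its neighbours, so single values of these genes are uncertain. Olfm4 also shares exonic bases on the same strand with Gm6999, and Sox4 and Lrig1 with genes on the opposite strand, Gm26735 and Slc25a26. Whether the counting used the strand is not given in the sources used here.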

How the data were processed

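The deposited matrices held raw UMI counts per gene and barcode, made by the authors with Cell Ranger (4.0.0 per the file headers, while the submitters' notes list 2.1.1 and build mm10). The methods give default parameters and a 3-prime library kit, and name more than 1 chip version without saying which library had which. There were 15987 barcodes with 134876816 UMIs in WT and 12763 with 123794575 in KO, and 57 barcodes were in both. Cells with at least 200 genes and at most 30% mitochondrial UMIs were kept, the latter being the limit in the study, one legend of which gives fewer cells. Scrublet in scanpy 1.11.5 called 1 WT and 0 KO cells and so did not work, and doublets stayed in the main values. Seurat 5.3.0 (R 4.3.3) integrated the matrices with 2000 variable genes, the 10 genes and mitochondrial genes left out, and 30 dimensions.

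2 clustering graphs were built. The first joined all pairs of cells that share some of their 15 nearest neighbours and dropped weak pairs. With leidenalg 0.10.2 at resolution 1 it gave 23 clusters, none of them CBC-like. Only after this was seen was it replaced by the graph of the 15 nearest neighbours weighted by shared neighbours, which gave 27 clusters and a CBC-like one, and which is used throughout. The choice was thus made with its outcome known, and values from the earlier one are given as an alternative.

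A cluster took the class with most of its fixed markers among its first 50 genes, with at least 3 markers. The class names are rebuilt ones, and other results than the study's can come from that alone. Levels are CPM of summed UMIs with exact Poisson intervals, ratios have exact conditional binomial intervals and shares exact Clopper-Pearson intervals. A fold of 1.5 among genes with at least 50 UMIs was the rule of size. Intervals cover counting error only. Genes named outside the set are the 2 highest and 2 lowest of each list and those most similar in profile. Axin2, Mki67, Fabp6, Lyz1, Ctnnb1, Ptprc and Col1a1, the motifs and the printed start regions were chosen after values were seen. The ratio intervals were checked on counts simulated under the counting model they assume, which does not test that model on these data. The thinning was checked on the CBC-like cells themselves. Of the gene identifiers 98.7% were found in GENCODE M21. The 10 genes and all lists were chosen with earlier results of these data known. Alternatives covered filters, doublet scores, resolution, thinning, the denominator and the graph.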

Additional observations from a re-analysis of the deposited data

Results flagged for a closer look

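2 of the genes differed in direction between classes under the same contrast, with counting intervals on opposite sides of 0; the difference between classes was not tested. Sox4 had a log2 ratio of KO to WT of 0.88 (0.76 to 0.99) in PC-like cells and of -0.17 (-0.30 to -0.03) in CBC-like cells. Clca3b had 0.085 (0.020 to 0.15) in PC-like cells and -1.04 (-1.08 to -0.99) in TAC-like cells. The PC-like values sum clusters that take different parts of the class in each matrix: the cluster led by Clps, which carried most UMIs of the 10 genes, held 890 of 3260 cells in WT and 449 of 1091 in KO. Within that cluster Sox4 was at 0.42 (0.29 to 0.55), still above 0, and Clca3b at -0.49 (-0.57 to -0.42), on the same side as in TAC-like cells, so that the opposite direction of Clca3b did not hold there.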

How the results depend on the processing

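No paired analysis was possible because each genotype was deposited as 1 matrix whose cells cannot be assigned to the numbered samples. For filter and doublet alternatives cells were removed and class names kept. Of 81 values of the main results under an alternative, 60 stayed within the counting error of the reported value (for counts of genes, within 1.5 times it) and 21 moved. Of 250 values of single genes 187 stayed within it and 63 moved. Of 220 with the means of log2 values left out, 219 had the sign of the reported value, the exception being Sox4 in TAC-like cells, whose reported interval included 0.

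The CBC-like class is the choice on which most rests. The graph built first gave none at resolution 1, resolution 0.5 of the graph used gave none, and WT clustered alone gave none, so CBC-like values are missing for these settings (for WT alone, the WT values and the ratios). At resolution 2 the earlier one had 438 WT and 432 KO CBC-like cells and a median log2 ratio of -0.29 for the 10 genes. The settings of the earlier graph, and those that moved the mitotic marker-carrying cluster or left out the shallow TAC-like one, were added after the data had been seen. The median in TAC-like cells was -0.70 at resolution 2, -0.69 with each matrix clustered alone and -0.69 with the earlier clustering at resolution 2. The log2 ratio of the CBC-like share was 0.54, 0.77 with at least 500 genes per cell and 0.22 with the mitotic marker-carrying cluster counted in. Clustered alone, 14.5% of KO CBC-like cells held at least 5 genes.

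Leaving genes above 1% out of the totals moved the median over all kept cells to -0.49. Differences of mean log2 values per cell were -0.030, -0.038 and -0.028 in CBC-like, TAC-like and all kept cells, on a scale compressed by zeros. The share of CBC-like cells with at least 5 genes was 2.28% in WT and 1.94% in KO at 1000 UMIs, 38.8% and 31.6% at 4000, and 58.7% and 64.6% without thinning, the order then turning; with a limit of 4 genes it was 34.7% and 25.7%, and of 6 genes 3.76% and 1.32%. Without thinning the log2 ratio of the share over all kept cells was 0.48 instead of -0.29. Depth limits single-cell calls of the low genes: Lgr5, Ascl2 and Lrig1 were missed in most CBC-like cells at 2000 UMIs.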

Other observations

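The 2892 WT and 4105 KO barcodes that the filters removed also held UMIs of all 10 genes. Olfm4 was at 27.4 CPM in the removed and 59.3 CPM in the kept barcodes of WT, and at 14.1 and 24.2 CPM in KO. Ifitm3 was at 75.5 and 199 CPM in WT and at 161 and 392 CPM in KO. Smoc2 and Lrig1 had the opposite order of genotypes in removed and kept barcodes, but their removed values lay close together and rest on few UMIs. Smoc2 was at 21.6 CPM (78 UMIs) in WT and 22.1 CPM (144 UMIs) in KO among removed barcodes, against 40.0 and 35.6 CPM among kept ones. Lrig1 was at 8.29 CPM (30 UMIs) and 9.07 CPM (59 UMIs) against 13.1 and 9.05 CPM. The other 8 genes had the same order in both.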
